A study of Mus musculus with 2 samples.

Results

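The genes described here encode the hnRNP proteins and the SR proteins, 2 families of general splicing regulators, in mouse embryonic stem (ES) cells before and after differentiation. They were chosen by name, as the rows of the gene table whose symbol begins with HNRNP and a letter, or with SRSF or SFRS and a number. The rule found 32 of 34376 rows, of which 18 were hnRNP rows and 14 were SR rows. The 32 rows carried 31 symbols, because Srsf12 was listed at 2 places.

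The study measured RNA in E14 ES cells, which derive from 129P2/OlaHsd mice, at passage 29. The differentiated sample was a mixed cell population collected after 4.5 days without feeder cells in medium that held 10% serum and all-trans retinoic acid at 0.1 µM, a vitamin A derivative that induces differentiation. The undifferentiated sample was grown with 15% serum and leukemia inhibitory factor on mitomycin-treated mouse embryonic fibroblasts, which were then removed by adsorption to an estimated remainder below 0.25%. Each group was 1 library, sequenced in 2 lanes as 36 bp single-end reads from fragments of about 250 bp, and dead cells were estimated at 8% of the differentiated and 2% of the undifferentiated cells. With 1 library per group there was no replicate error and no test, so the SD given below is the spread between the 2 lanes of a library, which covers sequencing and read assignment only. In a mixed population, fewer cells that express a gene and less RNA per cell cannot be told apart.

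SR proteins bind RNA through an RNA recognition motif and carry a tail rich in arginine and serine. On exonic enhancers they recruit the spliceosome and favour exon inclusion. hnRNP proteins coat nascent transcripts, and many of them repress nearby splice sites, so that the balance between the families helps to set which exons are used. Many SR and hnRNP genes limit their own level by splicing in an exon with a premature stop codon, called a poison exon, or by an equivalent event in the untranslated region, which sends the transcript to nonsense-mediated decay.

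The cassette exons of 4 SR genes are shown because the deposited table gives separate values for decay-targeted or non-coding transcript models of these genes. The Srsf7 exon is from a GENCODE model that the deposited table does not list by its identifier. Each line runs 5′ to 3′ from the first base of the exon to its in-frame premature stop, which is in capitals. Positions are on GRCm38, and the exons and reading frames are those of GENCODE models annotated as targets of nonsense-mediated decay.
Srsf3 chr17:29039454-29039487, plus strand, the first 34 bases of an exon of 456 bases: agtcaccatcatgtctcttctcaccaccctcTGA
Srsf7 chr17:80205054-80205081, minus strand, the first 28 bases of an exon of 460 bases: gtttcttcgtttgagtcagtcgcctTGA
Srsf6 chr2:162932815-162932966, plus strand, the first 152 bases of an exon of 268 bases: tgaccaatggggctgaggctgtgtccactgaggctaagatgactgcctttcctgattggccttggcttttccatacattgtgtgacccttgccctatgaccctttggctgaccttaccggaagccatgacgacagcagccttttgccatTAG
Srsf4 chr4:131884276-131884390, plus strand, the first 115 bases of an exon of 207 bases: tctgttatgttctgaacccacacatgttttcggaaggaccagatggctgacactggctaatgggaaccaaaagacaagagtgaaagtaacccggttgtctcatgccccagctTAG
The exons of Srsf3 and Srsf7 are of similar length, and their reading frames stop within the first 34 and 28 bases. The frames of Srsf6 and Srsf4 run on for longer, to bases 152 and 115 of their exons.

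Values were taken as RPKM, reads scaled to transcript length and to library depth. Ratios are log2 of the differentiated value plus 1 over the undifferentiated value plus 1, for genes that reached 1 RPKM in either library. This floor was met by 31 members, namely 18 hnRNP and 13 SR rows, and by 18019 genes in all. Over all these genes the median log2 ratio was 0.12. A ratio of 2-fold or more was called higher or lower, and 19.1% of all genes were higher and 8.46% lower in the differentiated library. The identity of the samples was checked with markers. All 6 ES cell markers were lower in the differentiated library, with lane sums of 314 and 307 RPKM against 3506 and 3508 RPKM in the undifferentiated lanes, and all 6 differentiation markers were higher. Of 6 fibroblast markers 5 were higher in the differentiated library, with lane sums of 273 and 272 RPKM against 30.2 and 25.6 RPKM in the undifferentiated lanes. Thy1 was the exception, at 2.13 against 3.43 RPKM. The part of these cell types in the results below was not tested.

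Taken as families, the SR genes had lower values after differentiation and the hnRNP genes were close to even. Of the 13 SR rows at the floor 0 were 2-fold higher and 3 were 2-fold lower, namely Srsf7, Srsf2 and Srsf3, and their median log2 ratio was -0.50. Of the 18 hnRNP rows 1 was higher, Hnrnph1, and 0 were lower, with a median log2 ratio of -0.08. The summed SR level was 1433 RPKM in the differentiated and 2434 RPKM in the undifferentiated library, a ratio of 0.589. The summed hnRNP level was 4267 RPKM in the differentiated and 4555 RPKM in the undifferentiated library, a ratio of 0.937, and the sum over all genes had a ratio of 0.845.

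Both families were abundant, and abundant genes as a whole had lower ratios. In each library 13 hnRNP rows were at 100 RPKM or more, as were 7 SR rows in the differentiated and 8 in the undifferentiated library. The same level was reached by 8.07% of all genes at the floor in the differentiated library and by 8.64% in the undifferentiated library. Among the 1827 genes at 100 RPKM or more in either library the median log2 ratio was -0.51, with 11.2% higher and 11.5% lower. The 8 SR rows at that level had a median log2 ratio of -0.75, with 0 higher and 3 lower, and the 13 hnRNP rows a median of -0.15, with 1 higher and 0 lower. Of the 18 hnRNP rows 16 lay within 0.5 of 0 on the log2 scale, as did 6 of the 14 SR rows and 42.0% of all genes at the floor.

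**Figure D1:**
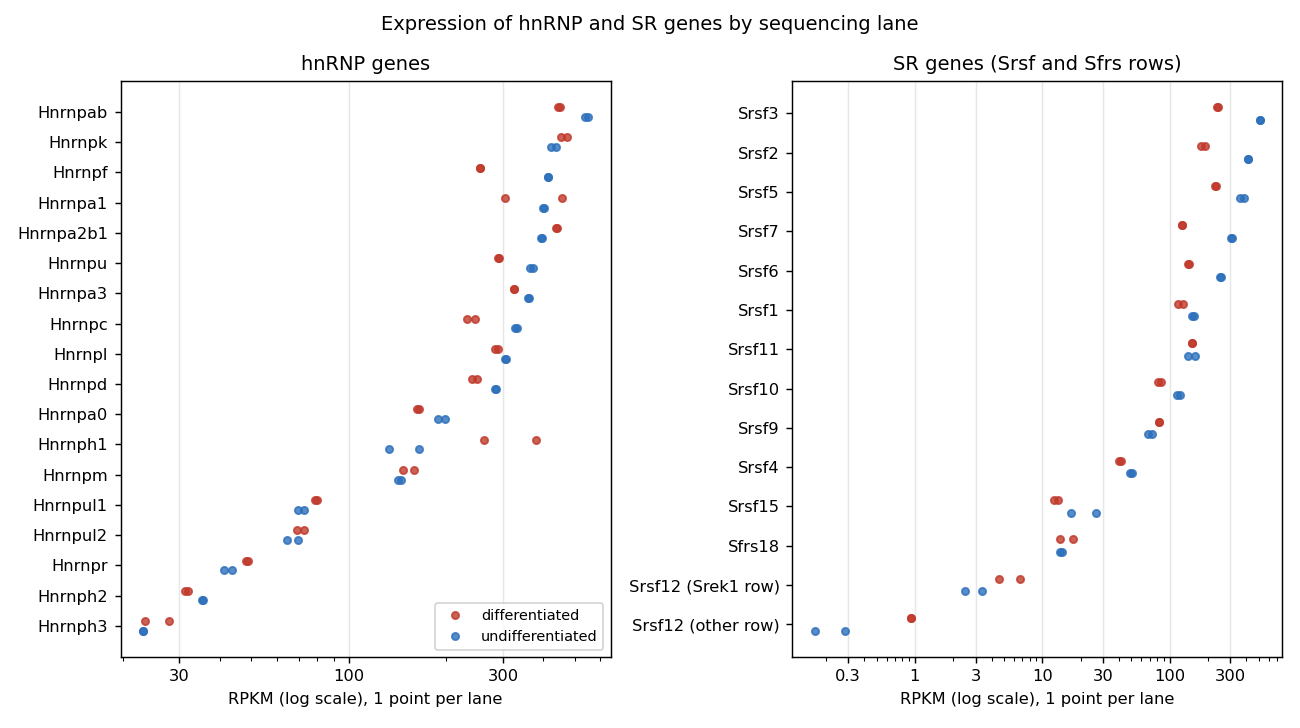
Level of each hnRNP gene (left panel) and SR gene (right panel) in RPKM on a log scale, with 1 point per lane, differentiated above undifferentiated. The differentiated points of Srsf2, Srsf3 and Srsf7 lie clear to the left of the undifferentiated points, whereas most hnRNP pairs lie close together.

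The canonical SR proteins, Srsf1 to Srsf7 and Srsf9, accounted for most of the family's difference in summed level. This set was chosen after seeing the data. Their summed level was 1164 RPKM in the differentiated and 2128 RPKM in the undifferentiated library, a ratio of 0.547. Of these 8 genes 7 had a ratio below 0, and their median log2 ratio was -0.75. A ratio below 0 was also found in 7977 of all 18019 genes at the floor. Among genes at 100 RPKM or more in either library it was found in 1337 of 1827. The 5 other SR rows at the floor had a median log2 ratio of 0.01. Their sum, with the row below the floor, was 269 RPKM in the differentiated and 306 RPKM in the undifferentiated library. The 2 sets also differed in level, with undifferentiated medians of 280 RPKM for the canonical genes and 21.65 RPKM for the others.

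Srsf7, a shuttling SR protein with a zinc knuckle that also acts in mRNA export and in the choice of polyadenylation site, lies on chromosome 17 at 80599420 to 80606645 of mm9. It had 124 and 126 RPKM in the differentiated lanes, against 306 and 310 RPKM in the undifferentiated lanes. After differentiation its level was 2.46-fold lower, and the log2 ratio was -1.29 in the mean and in each lane. The lanes of each library lay within a few RPKM of each other, and the libraries did not overlap.

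Srsf2, known for binding exonic enhancers in the nucleus and for acting in the release of paused RNA polymerase, lies on chromosome 11 at 116711211 to 116714408 of mm9. It had 188 and 178 RPKM in the differentiated lanes, against 411 and 412 RPKM in the undifferentiated lanes. The ratio was -1.16 on the log2 scale, with lane ratios of -1.12 and -1.21. Every differentiated lane was below every undifferentiated lane.

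Srsf3, the smallest of the SR proteins, is a splicing and export factor that has been tied to pluripotency in mouse cells. The gene lies on chromosome 17 at 29169605 to 29180317 of mm9 and was the most abundant SR gene in both libraries. It had 235 and 240 RPKM in the differentiated lanes, against 515 and 513 RPKM in the undifferentiated lanes, a log2 ratio of -1.11. Its lanes too were apart by much more than they differed within a library.

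Srsf6 and Srsf5, SR proteins with a pair of RNA recognition motifs, were lower by less than 2-fold. Srsf6 had 143 and 139 RPKM in the differentiated lanes, against 255 and 249 RPKM in the undifferentiated lanes, a log2 ratio of -0.83. Srsf5 had 230 and 233 RPKM in the differentiated lanes, against 356 and 381 RPKM in the undifferentiated lanes, a log2 ratio of -0.67. For both genes the lanes of the libraries were apart.

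Srsf1 and Srsf4 differed less. Srsf1, the classical splicing factor known as SF2/ASF, averaged 122 ± 6.68 RPKM in the differentiated and 153 ± 5.29 RPKM in the undifferentiated library, a log2 ratio of -0.32. Srsf4 averaged 41.1 ± 0.883 RPKM in the differentiated and 50.1 ± 1.28 RPKM in the undifferentiated library, a log2 ratio of -0.28. Srsf9, a close relative of Srsf1, was the canonical gene with a ratio above 0. It averaged 83.0 ± 0.230 RPKM in the differentiated and 70.2 ± 3.79 RPKM in the undifferentiated library, a log2 ratio of 0.24.

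The remaining SR rows hold genes that are named for their arginine and serine tails but differ in role. Srsf10, which acts as a splicing repressor when dephosphorylated, averaged 83.6 ± 3.87 RPKM in the differentiated and 118 ± 4.95 RPKM in the undifferentiated library, a log2 ratio of -0.50. Srsf11 averaged 150 ± 1.42 RPKM in the differentiated and 149 ± 12.6 RPKM in the undifferentiated library, with overlapping lanes. Sfrs18, now named Pnisr in RefSeq, also had overlapping lanes, with 13.7 and 17.4 RPKM in the differentiated lanes, against 13.7 and 14.3 RPKM in the undifferentiated lanes. A row named BC060111 shares 12686 bp with it on the same strand. That row was at 21.8 RPKM in the differentiated and 17.4 RPKM in the undifferentiated library.

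Srsf15, now named Scaf4 in RefSeq, had 12.3 and 13.3 RPKM in the differentiated lanes, against 16.7 and 26.6 RPKM in the undifferentiated lanes. Its log2 ratio of -0.72 varied with the lane, at -0.42 and -0.95, and a separate Scaf4 row that overlaps it was at 11.6 RPKM in the differentiated and 11.4 RPKM in the undifferentiated library. Of the Srsf12 rows, the row on chromosome 13 at 104538839 to 104564688 of mm9 matches Srek1 in RefSeq. It had 6.74 and 4.58 RPKM in the differentiated lanes, against 3.37 and 2.49 RPKM in the undifferentiated lanes, a log2 ratio of 0.76. A Srek1 row that covers the same place was at 19.7 RPKM in the differentiated and 17.4 RPKM in the undifferentiated library. The Srsf12 row on chromosome 4 was below the floor, at 0.941 and 0.926 RPKM in the differentiated lanes and 0.283 and 0.163 RPKM in the undifferentiated lanes. A row named Srsf13b shares 22031 bp with it on the same strand. That row was at 1.02 RPKM in the differentiated and 0.786 RPKM in the undifferentiated library. Values of rows that share a place can be split between them and are uncertain. In all, 20 members overlap the span of another row, in 31 overlaps of which 13 are on the opposite strand.

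**Figure D2:**
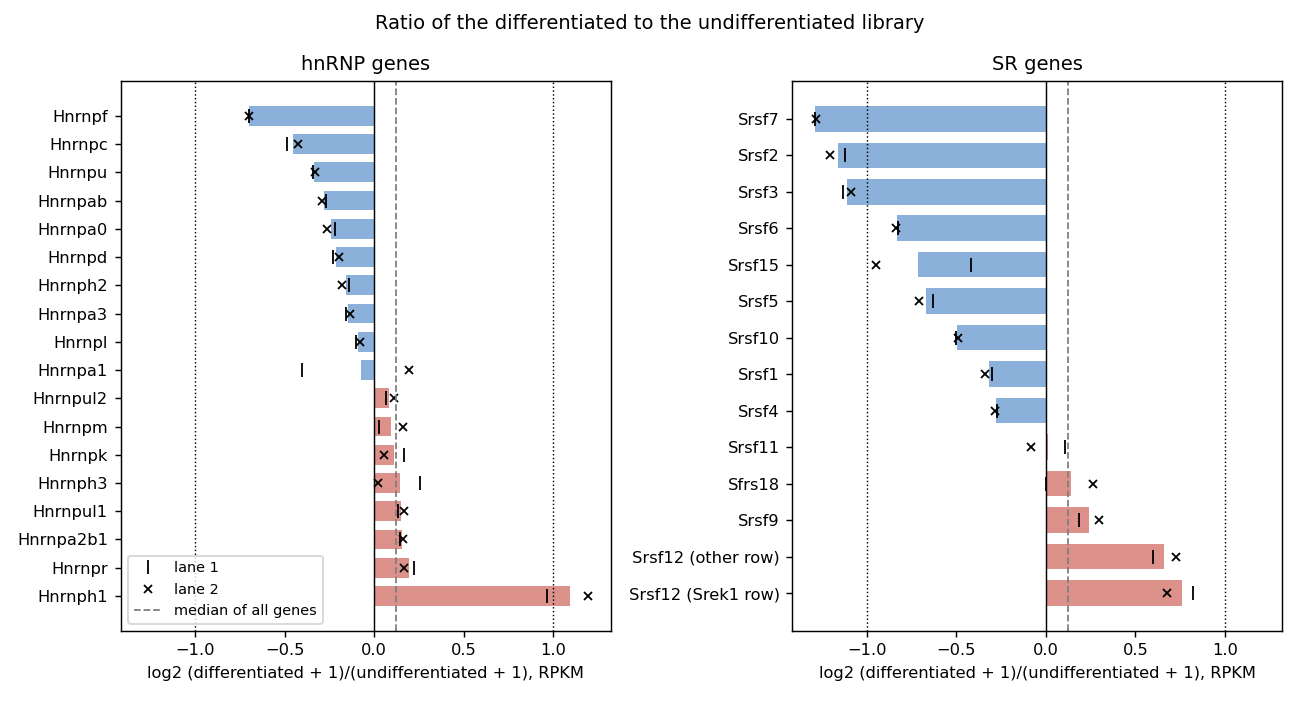
Log2 ratio of the differentiated over the undifferentiated library for each hnRNP gene (left panel) and SR gene (right panel). Bars are ratios of lane means, marks are lane ratios, the dashed line is the all-gene median of 0.12 and dotted lines mark 2-fold. Srsf7, Srsf2 and Srsf3 pass the lower line, and Hnrnph1 passes the upper line in lane 2 and in the mean only.

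Among the hnRNP genes, Hnrnph1 had the highest ratio. It encodes hnRNP H, which binds runs of guanines and can favour or repress exons depending on where it binds, and lies on chromosome 11 at 50190492 to 50200030 of mm9. It had 262 and 379 RPKM in the differentiated lanes, against 134 and 165 RPKM in the undifferentiated lanes. The means were 320 ± 82.6 RPKM in the differentiated and 149 ± 21.8 RPKM in the undifferentiated library, a log2 ratio of 1.10. The libraries did not overlap, but the differentiated lanes differed by 1.45-fold between themselves. Most of the value lay in transcript models not annotated as coding. The coding model ENSMUST00000077817 was at 43.5 RPKM in the differentiated and 17.9 RPKM in the undifferentiated library. ENSMUST00000143301 and UC007ISM.1 were listed at 0 in lane 1 of both libraries, and at 55.3 and 34.9 RPKM in lane 2 of the differentiated library. The 2-fold call was met in lane 2 and missed in lane 1, at 0.96, and it was also missed, at 0.97, when the ratios were centred on the all-gene median.

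Its relative Hnrnpf, which binds the same guanine runs, had the lowest hnRNP ratio. It had 255 and 254 RPKM in the differentiated lanes, against 415 and 414 RPKM in the undifferentiated lanes, a log2 ratio of -0.70. The pair thus stood at the opposite ends of the family. The other members of the group were close to even, with Hnrnph2 at -0.16 and Hnrnph3 at 0.14. Summed over these 4 genes, the F/H group was at 632 RPKM in the differentiated and 622 RPKM in the undifferentiated library.

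The A/B proteins are abundant repressors of splicing that also act in mRNA transport and stability. Hnrnpab, the most abundant hnRNP gene in the undifferentiated library, had 445 and 450 RPKM in the differentiated lanes, against 537 and 551 RPKM in the undifferentiated lanes, a log2 ratio of -0.28. Hnrnpa2b1, which also directs mRNA transport, averaged 439 ± 0.788 RPKM in the differentiated and 394 ± 2.17 RPKM in the undifferentiated library, a log2 ratio of 0.15. Hnrnpa0, an intronless gene, had 162 and 165 RPKM in the differentiated lanes, against 190 and 199 RPKM in the undifferentiated lanes, a log2 ratio of -0.24. Hnrnpa3 averaged 325 ± 0.760 RPKM in the differentiated and 359 ± 2.77 RPKM in the undifferentiated library, a log2 ratio of -0.15.

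Hnrnpa1, the best studied of these repressors, could not be placed. It had 304 and 458 RPKM in the differentiated lanes, which lay on either side of the undifferentiated lanes at 403 and 400 RPKM. The predicted gene Gm10052 shares 5535 bp with it on the same strand and was listed at 192 RPKM in the differentiated and 114 RPKM in the undifferentiated library. Hnrnpa3 has a similar overlap with Gm6793, listed at 317 RPKM in the differentiated and 339 RPKM in the undifferentiated library. The levels of both hnRNP genes are therefore uncertain.

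The other hnRNP genes with a low ratio were Hnrnpc, Hnrnpu and Hnrnpd. Hnrnpc, whose tetramers bind uridine tracts and package nascent RNA, had 233 and 246 RPKM in the differentiated lanes, against 327 and 331 RPKM in the undifferentiated lanes, a log2 ratio of -0.45. Hnrnpu, the scaffold attachment factor that binds both RNA and chromatin, had 292 and 289 RPKM in the differentiated lanes, against 371 and 365 RPKM in the undifferentiated lanes, a log2 ratio of -0.34. Hnrnpd, also known as AUF1 and a regulator of mRNA decay at AU-rich elements, had 241 and 249 RPKM in the differentiated lanes, against 283 and 286 RPKM in the undifferentiated lanes, a log2 ratio of -0.21. In all 3 genes the lanes of the libraries were apart, although each difference was under 2-fold.

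Hnrnpk, a poly(C)-binding protein, was the most abundant hnRNP gene in the differentiated library. It had 473 and 454 RPKM in the differentiated lanes, against 422 and 437 RPKM in the undifferentiated lanes, a log2 ratio of 0.11. Hnrnpr had 48.2 and 48.9 RPKM in the differentiated lanes, against 41.1 and 43.5 RPKM in the undifferentiated lanes, a log2 ratio of 0.19. Hnrnpl, which binds CA repeats, was at -0.09 on the log2 scale, Hnrnpm at 0.09, Hnrnpul1 at 0.15 and Hnrnpul2 at 0.09. Across the 32 members the lanes of the libraries overlapped in 4, namely Srsf11, Sfrs18, Hnrnpa1 and Hnrnpul2. The same count was not made over all genes, so lanes that are apart cannot be read as a trait of the members.

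The sign of a small ratio depended on how the libraries were set on a common scale, since each scaling moves all genes by nearly the same amount. Under centring on the all-gene median, equal sums or the upper quartile, 8 of the 18 hnRNP genes changed sign, 5 stayed below 0 and 5 stayed above 0. Those that stayed below 0 were Hnrnpf, Hnrnpc, Hnrnpu, Hnrnpab and Hnrnpa0. Of the 14 SR rows, including the Srsf12 row below the floor, 1 changed sign, Srsf11, and 9 stayed below 0 under each of these scalings. Sign changes were not counted over all genes, so these counts cannot be read as a trait of either family. Under equal sums 1 SR gene, Srsf7, remained 2-fold lower.

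The promoters of the 3 SR genes called lower are shown for reference, because these members were lower together. Each line gives the 250 bases upstream of the RefSeq start on GRCm38.p6, 5′ to 3′ in the direction of transcription. Capitals mark matches, on either strand, to the TATA box TATAAA, the CCAAT box, the GC box GGGCGG and the ETS-type site CCGGAAG.
Srsf7 chr17:80207306-80207555, minus strand: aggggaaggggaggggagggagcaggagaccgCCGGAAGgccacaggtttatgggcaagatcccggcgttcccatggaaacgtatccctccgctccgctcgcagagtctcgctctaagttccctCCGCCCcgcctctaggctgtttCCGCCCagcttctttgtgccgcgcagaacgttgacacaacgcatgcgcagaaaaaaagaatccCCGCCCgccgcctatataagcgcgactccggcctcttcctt
Srsf2 chr11:116853095-116853344, minus strand: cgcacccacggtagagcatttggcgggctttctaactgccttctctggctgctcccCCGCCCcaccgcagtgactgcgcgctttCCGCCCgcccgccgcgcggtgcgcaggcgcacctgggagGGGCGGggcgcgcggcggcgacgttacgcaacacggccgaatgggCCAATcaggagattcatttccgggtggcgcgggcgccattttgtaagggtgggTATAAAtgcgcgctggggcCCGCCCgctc
Srsf3 chr17:29032410-29032659, plus strand: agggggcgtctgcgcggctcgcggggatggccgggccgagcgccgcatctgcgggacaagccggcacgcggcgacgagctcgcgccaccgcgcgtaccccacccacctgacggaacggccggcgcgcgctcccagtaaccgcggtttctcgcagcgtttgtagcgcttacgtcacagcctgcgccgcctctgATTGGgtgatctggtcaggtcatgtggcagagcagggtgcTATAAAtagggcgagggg
TATAAA was present in Srsf2 and Srsf3 and, among the other members, in Hnrnpm. Promoters were found for 30 of the 32 members, and TATAAA occurred in 10.0% of these against 13.0% of 27025 promoters of the same length. GGGCGG occurred in 76.7% of member promoters against 32.9% of all, CCAAT in 50.0% against 34.5% and CCGGAAG in 23.3% against 7.05%. The E-box CACGTG occurred in 6.67% of member promoters against 6.05% of all, and the CRE TGACGTCA was found in 0 of the 30. Member promoters were also richer in G and C, with a median of 65.2% against 52.0% for all promoters, and the matches describe letters only.

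The transcript table listed 202 models for the members, and each gene value was the sum of its models. Of the models 81 were coding, 25 were retained-intron models, 30 were processed transcripts, 15 were targets of nonsense-mediated decay and 2 were non-coding in RefSeq only. Another 49 had no type in the annotation used. How reads that fit several models were divided is not given here, and with 36 bp reads most models of a gene share most of their positions. A share below is a model's percentage of its gene's RPKM.

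A gene was called when a share differed by at least 20 percentage points in the mean and by at least 10 points, in the same direction, in both lanes. Of the 28 members tested 1 was called, Srsf4, or 3.57%, against 8.88% of all 6116 genes tested. A model without a type in the last exons of Srsf4, UC008VAH.1, held 4.86% and 0.547% of the gene in the differentiated lanes, against 70.1% in each undifferentiated lane. Its level was 1.10 ± 1.23 RPKM in the differentiated and 35.1 ± 0.888 RPKM in the undifferentiated library. The difference had the same direction and nearly the same size in both lanes, while the total of the gene was 1.22-fold lower.

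Of the 5 other Srsf4 models 4 had larger shares in the differentiated library. ENSMUST00000172014 held 30.3% and 33.5% in the differentiated lanes, against 3.97% and 3.69% in the undifferentiated lanes. ENSMUST00000129966, the decay-targeted model whose exon is shown above, held 23.1% and 25.5% in the differentiated lanes, against 3.94% and 4.35% in the undifferentiated lanes. The coding model NM_020587 was the exception, with 10.7% and 12.1% in the differentiated lanes, against 12.7% and 13.4% in the undifferentiated lanes. Its level was 4.68 ± 0.493 RPKM in the differentiated and 6.55 ± 0.401 RPKM in the undifferentiated library. The larger shares lay in models with and without the premature stop.

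**Figure D3:**
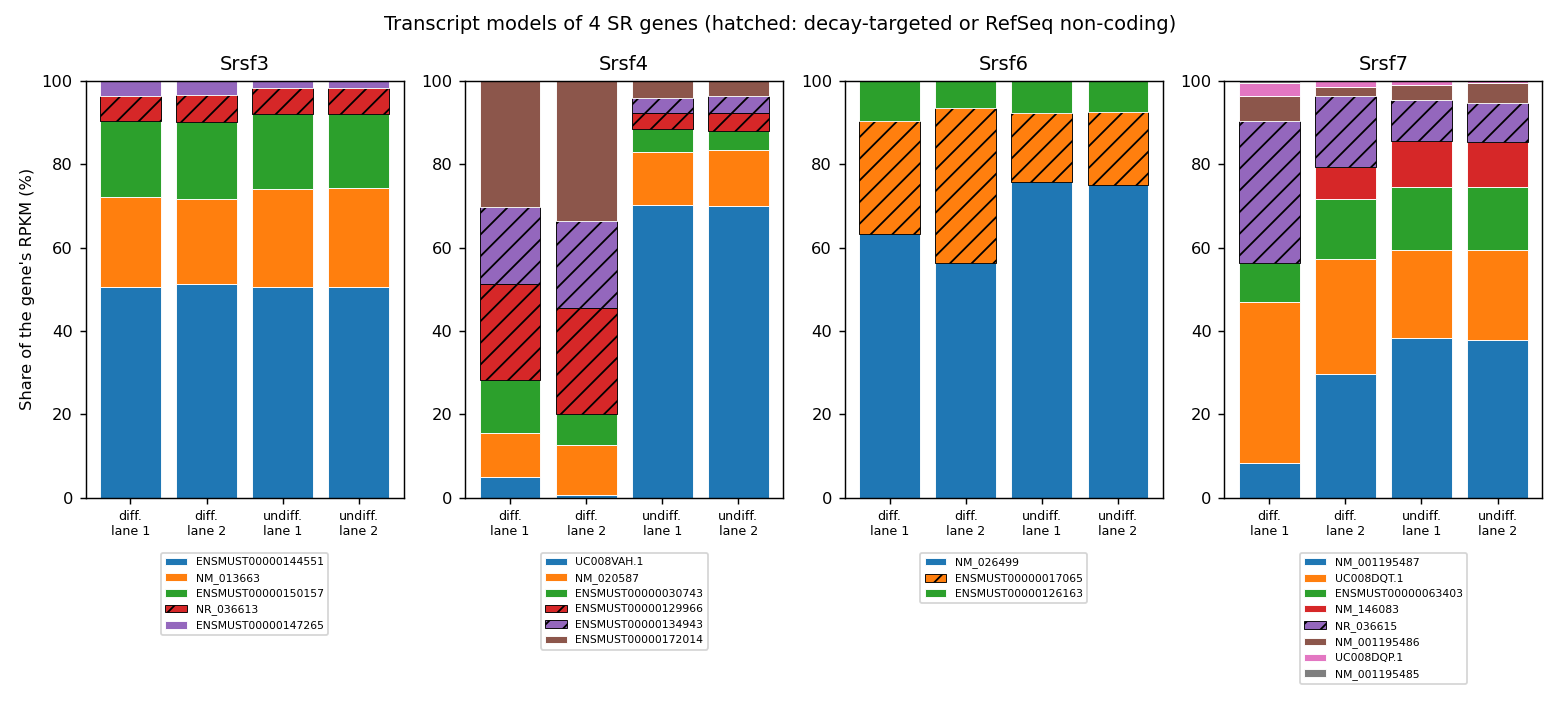
Share of each transcript model in the RPKM of Srsf3, Srsf4, Srsf6 and Srsf7, in percent, with 1 stacked bar per lane, differentiated lanes to the left, and hatching on decay-targeted or RefSeq non-coding models. The undifferentiated lanes look alike in each gene, the differentiated lanes of Srsf7 differ from each other, and the Srsf3 bars hardly differ between libraries.

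Several other large share differences came from a single lane. UC007ZWA.1 of Srsf15 held 45.4% in lane 2 of the undifferentiated library and was listed at 0 in the other lanes. ENSMUST00000036004 of Hnrnpa1 held 46.1% in lane 1 of the differentiated library and was listed at 0 elsewhere. UC009FTV.1 of Hnrnpul1 held 53.5% and 53.9% in the differentiated lanes, against 53.9% and 17.2% in the undifferentiated lanes. OTTMUST00000083527 of Hnrnpm held 25.0% and 26.7% in the differentiated lanes, against 25.4% and 0% in the undifferentiated lanes. In each case lanes of the same library differed as much as the libraries did.

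Srsf6, Srsf7 and Sfrs18 differed in the same direction in both lanes without meeting the call. The coding Srsf6 model NM_026499 held 63.2% and 56.3% in the differentiated lanes, against 75.8% and 75.0% in the undifferentiated lanes. The coding Srsf7 model NM_001195487 held 8.41% and 29.7% in the differentiated lanes, against 38.2% and 37.8% in the undifferentiated lanes. NM_025669 of Sfrs18 held 69.9% and 59.9% in the differentiated lanes, against 76.2% and 78.6% in the undifferentiated lanes. A Srsf2 model without a type, ENSMUST00000092403, was listed at 0 in both differentiated lanes, against 40.0 and 41.7 RPKM in the undifferentiated lanes.

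The deposited start-site table groups models by where they begin. Of the 22 members tested in it 1 was called by the same share rule, Srsf4, against 6.99% of 4432 genes. The groups are sums of the same models, and a called Srsf4 group holds UC008VAH.1 alone, so this call repeats the transcript call. In Hnrnph1, whose total was higher in the differentiated library, the start-site group beginning at 50191221 of chromosome 11 (mm9) held 23.4% and 22.4% of the gene in the differentiated lanes, against 22.9% and 23.0% in the undifferentiated lanes. In Hnrnpf, whose total was lower, the group beginning at 117867312 of chromosome 6 (mm9) held 50.8% and 51.4% in the differentiated lanes, against 49.9% and 50.0% in the undifferentiated lanes. These shares were nearly the same in both libraries although the totals of the genes differed. Both genes were chosen here after their values were seen.

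Decay-targeted and RefSeq non-coding models, here called unproductive, were then set against the RefSeq coding models of the same gene, a comparison chosen after the values were seen. It could be made for 13 members. Coding models without a RefSeq identifier and models without a type were left out, so the coding sum can be a small part of a gene. Unproductive RPKM per 100 coding RPKM was higher in both differentiated lanes than in both undifferentiated lanes for 8 genes, lower for 3 and overlapping for 2. Of all 1417 genes at the floor with both kinds of model, 24.1% were higher and 18.5% lower by the same rule, with no matching for level. The ratio of the libraries had a median of 1.15 over the 12 members that had one, against 1.02 over 1321 of all genes. It was over 1.5 for 4 members, namely Srsf4, Srsf7, Srsf6 and Hnrnph3. Srsf4 had the largest ratio, 6.31, with 388 and 385 per 100 coding RPKM in the differentiated lanes, against 60.2 and 62.2 in the undifferentiated lanes. Its unproductive models summed to 18.1 RPKM in the differentiated and 4.01 RPKM in the undifferentiated library. Its coding value was low, at 4.68 RPKM in the differentiated and 6.55 RPKM in the undifferentiated library. Srsf11 was counted as higher but had no ratio, because its unproductive model was listed at 0 in both undifferentiated lanes. The unproductive Hnrnph3 model was below 1 RPKM in every lane.

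In Srsf6 and Srsf7 the coding models were lower while the lanes of the unproductive models overlapped between libraries. Srsf6 coding RPKM was 90.4 and 78.2 in the differentiated lanes, against 193 and 187 in the undifferentiated lanes. Its poison-exon model was at 38.8 and 51.8 RPKM in the differentiated lanes, against 42.2 and 43.7 RPKM in the undifferentiated lanes. Per 100 coding RPKM this gave 42.9 and 66.2 in the differentiated lanes, against 21.9 and 23.3 in the undifferentiated lanes, a ratio of 2.38. A coding model of Srsf6, ENSMUST00000126163, holds the same exon, so reads in it do not mark the decay-targeted model alone.

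Srsf7 coding RPKM was 18.8 and 50.0 in the differentiated lanes, against 163 and 166 in the undifferentiated lanes. This sum leaves out models without a type, such as UC008DQT.1, at 41.4 RPKM in the differentiated and 66.1 RPKM in the undifferentiated library. ENSMUST00000063403, at 15.0 RPKM in the differentiated and 46.4 RPKM in the undifferentiated library, is left out too. NR_036615, the Srsf7 model that is non-coding in RefSeq, was at 42.3 and 21.4 RPKM in the differentiated lanes, against 29.7 and 28.7 RPKM in the undifferentiated lanes. Whether it holds the Srsf7 exon shown above is not shown by these values. Per 100 coding RPKM the lanes were at 225 and 42.8 in the differentiated library, against 18.2 and 17.3 in the undifferentiated library, a ratio of 5.21. Both differentiated lanes were above the undifferentiated lanes, but they were far from each other, so the size of the difference is not settled by these lanes.

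Srsf3 and Srsf2 showed another arrangement, in which coding and unproductive models were lower together. The Srsf3 coding model was at 50.1 ± 1.06 RPKM in the differentiated and 122 ± 0.325 RPKM in the undifferentiated library. Its poison-exon model was at 14.6 ± 1.01 RPKM in the differentiated and 32.2 ± 0.00530 RPKM in the undifferentiated library. The 2 values gave 29.2 unproductive per 100 coding RPKM in the differentiated and 26.4 in the undifferentiated library, a ratio of 1.11. Most of the Srsf3 value lay in retained-intron models, of which ENSMUST00000144551 was at 121 ± 3.26 RPKM in the differentiated and 260 ± 0.289 RPKM in the undifferentiated library. For Srsf2 the unproductive value per 100 coding RPKM was 16.1 in the differentiated and 13.6 in the undifferentiated library.

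Srsf1, Srsf5 and Srsf9 had the opposite direction. Srsf1 had 34.3 and 44.8 unproductive per 100 coding RPKM in the differentiated lanes, against 62.7 and 60.6 in the undifferentiated lanes, a ratio of 0.639. The coding Srsf1 model ENSMUST00000107920, at 19.8 RPKM in the differentiated and 25.7 RPKM in the undifferentiated library, is outside this RefSeq sum. Srsf5 had 7.85 and 15.0 in the differentiated lanes, against 16.2 and 17.0 in the undifferentiated lanes, a ratio of 0.656. Srsf9 had a ratio of 0.798. Among the canonical SR genes the direction of this measure thus differed from gene to gene.

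**Figure D4:**
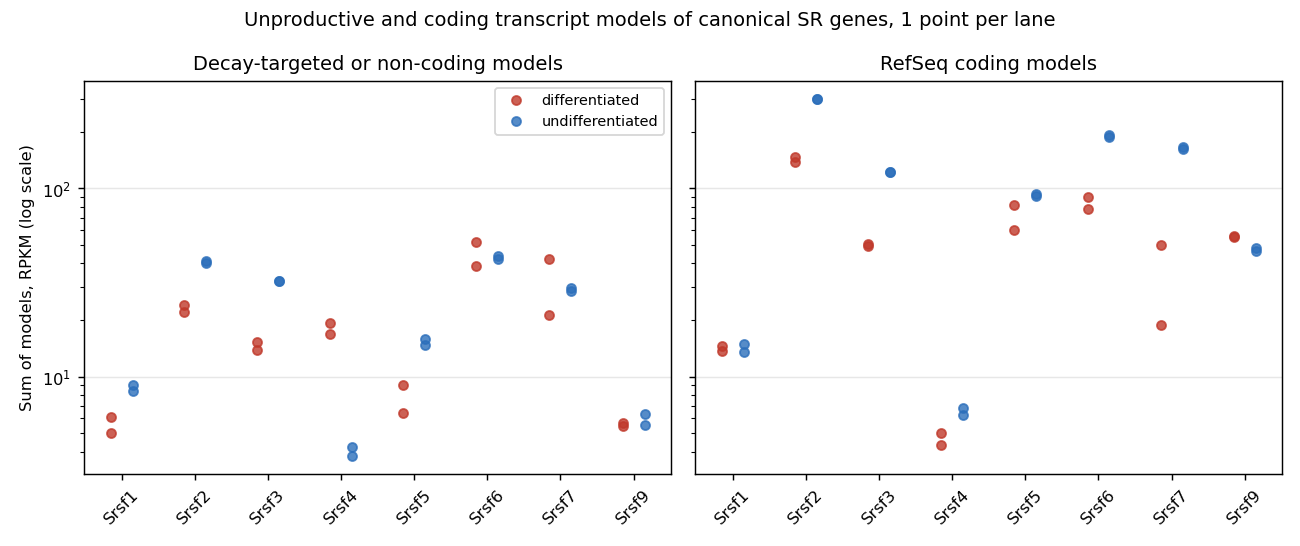
Summed RPKM on a log scale of decay-targeted or non-coding models (left panel) and of RefSeq coding models (right panel) for 8 canonical SR genes, with 1 point per lane, differentiated left of undifferentiated. For Srsf6 and Srsf7 the coding points are apart and the unproductive points overlap, whereas for Srsf2 and Srsf3 both kinds are lower in the differentiated library.

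Other genes of the splicing machinery were read from 6 lists. The hnRNP proteins that carry other names had 0 of 14 genes higher and 1 lower, with a median log2 ratio of -0.24. The lower gene was Rbmx, which encodes hnRNP G, at 19.1 and 18.8 RPKM in the differentiated lanes, against 97.4 and 40.4 RPKM in the undifferentiated lanes. Its undifferentiated lanes were far apart, but both were above the differentiated lanes. Ewsr1, an RNA-binding protein of the FET family, had a log2 ratio of -0.68.

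Of 28 SR-related genes 0 were higher and 1 was lower, with a median of -0.22. The lower gene was U2af1, the small subunit of the factor that recognises the 3′ splice site, at 149 ± 3.64 RPKM in the differentiated and 318 ± 2.16 RPKM in the undifferentiated library. Tra2b, an SR-like activator of exons that contain GA-rich enhancers, averaged 125 ± 8.97 RPKM in the differentiated and 223 ± 4.30 RPKM in the undifferentiated library, a log2 ratio of -0.83. These values resemble those of Srsf2 and Srsf6 in size.

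The list of SR protein kinases and nuclear importers had 1 of 12 genes higher and 1 lower, with a median of 0.10. It also counts Ppm1g, which encodes a phosphatase, and Tnpo1, an importer best known for other cargo. Clk3, a nuclear kinase of SR proteins, was at 34.7 and 34.1 RPKM in the differentiated lanes, against 14.9 and 7.24 RPKM in the undifferentiated lanes, a log2 ratio of 1.55. Srpk3, a kinase best known from muscle, was called lower from 1 lane, with lane ratios of -1.72 and 0.26.

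The core spliceosome stood nearer to the SR than to the hnRNP median. Genes at 100 RPKM or more in either library had a median of -0.51, so such medians are not particular to the spliceosome. Over all genes at the floor 8.46% were lower, and the lists were not matched for level. The Sm and LSm proteins had 0 of 16 genes higher and 1 lower, with a median of -0.46. The lower gene was Snrpn, an imprinted Sm protein gene, at 20.3 ± 1.33 RPKM in the differentiated and 54.6 ± 0.176 RPKM in the undifferentiated library, and Snrpd2 had a log2 ratio of -0.83. Other spliceosome proteins, from the snRNPs and from complexes such as Prp19, had 0 of 35 genes higher and 3 lower, with a median of -0.42. Among them Cdc5l, a subunit of the Prp19 complex, was at 38.5 ± 0.0389 RPKM in the differentiated and 132 ± 4.32 RPKM in the undifferentiated library, and Prpf4 had a log2 ratio of -1.05.

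Of 18 factors of nonsense-mediated decay and the exon junction complex 0 were higher and 1 was lower, with a median of -0.11. The lower gene was Rbm8a, the exon junction protein also called Y14, at 95.7 ± 8.64 RPKM in the differentiated and 195 ± 2.41 RPKM in the undifferentiated library.

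**Figure D5:**
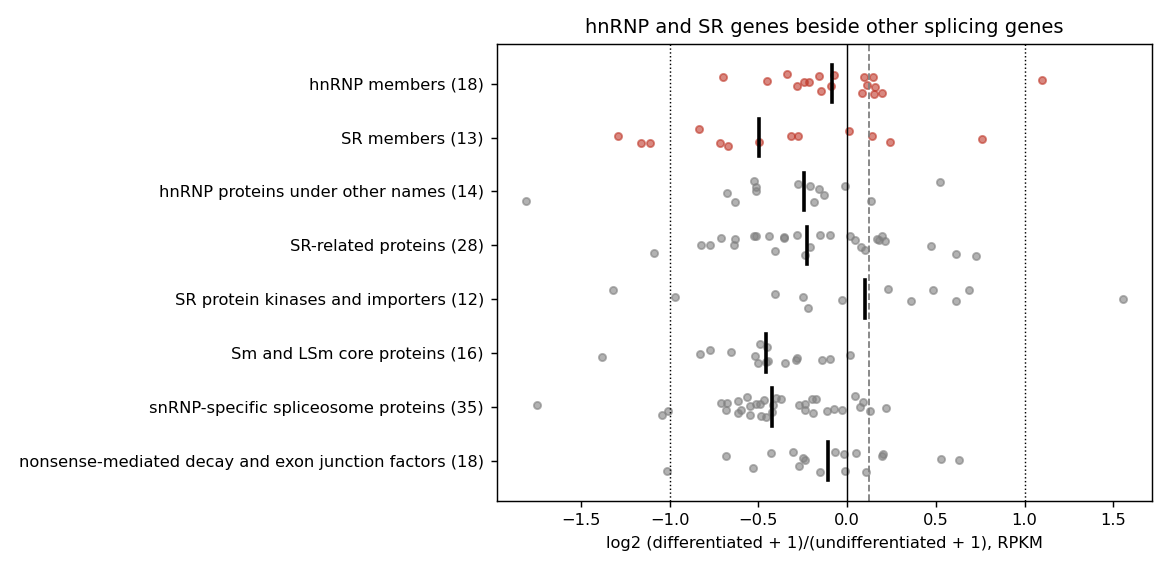
Log2 ratio of the differentiated over the undifferentiated library for the hnRNP and SR members (red) and for the genes of 6 related lists (grey), with 1 point per gene, a bar at each list's median, dashed line at the all-gene median and dotted lines at 2-fold. Numbers in brackets are genes at the floor, and each list except the kinases and importers has its median below 0.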

How the data were processed

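RNA was measured by poly(A)-selected, unstranded sequencing, per the labels' protocols. The 3 deposited tables (genes, transcripts and start sites) hold values taken as RPKM on mm9, the build in the submitters' processing notes. The unit was inferred from the values. For single-exon genes, about 82% of low values multiplied by length were whole multiples, within 5%, of the best-fitting step, taken as 1 read. This shows scaling to length, whereas scaling to depth was assumed. Under that assumption the steps imply 33000000 and 32000000 reads in the differentiated lanes, and 37800000 and 36100000 in the undifferentiated lanes. For the aligner, the gene models and reads with several matches, the steps were not given in the sources used here. Without strand, reads from overlapping genes on opposite strands cannot be told apart. The 2 lanes of a library were averaged, and a pseudocount of 1 RPKM, a floor of 1 RPKM in either library and a 2-fold call were used. With 1 library per group no test was possible. The calculation was tested on simulated data. Each matching row counted as a member.

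Lane values are given for the 8 hnRNP and 6 SR genes with the largest absolute ratio, the 3 highest of each family in the undifferentiated library and the 8 genes with the largest share differences. Of each related list the 2 genes with the largest absolute ratio are named, except 1 that is not reported here. Members and lists were chosen with earlier results of these data known. Of the related lists, 3 genes were left out as members and 2 were not matched. Transcript types came from GENCODE M21 by identifier, and names and promoters from RefSeq on GRCm38.p6. Python 3.11.15, numpy 2.4.6 and pandas 2.3.3 were used.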

Additional observations from a re-analysis of the deposited data

How the results depend on the processing

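Across alternative pseudocounts, floors, scalings, single lanes and treatments of repeated symbols, 57 recomputed values stayed close to the reported ones, 16 moved and 1 reversed. A count moved when it changed by more than a set factor, and a median when it shifted by more than the SD between the lanes. A reversed median changed sign, and the SR median stayed below 0 in every setting. The count of hnRNP genes that were 2-fold higher, 1 as reported, was 0 under median centring, under upper-quartile scaling, in lane 1 alone and, chosen after seeing the data, among members whose lanes were within 1.2 times of each other. The count of SR genes that were 2-fold lower, 3 as reported, was 1 with equal sums over all genes. Equal sums raised the all-gene median log2 ratio to 0.34 and reversed the hnRNP median, to 0.16, while the SR median was -0.17. Under median centring the hnRNP median was -0.21 and the SR median -0.62, and under upper-quartile scaling they were -0.21 and -0.62. The SR median was also -0.41 with no floor, -0.42 in lane 1 alone, -0.58 among members with lanes within 1.2 times and -0.75 for the canonical SR genes, the last 2 chosen after seeing the data. Members with a share difference of 20 points numbered 4 in lane 1 alone and 4 in lane 2 alone, where 20.4% and 20.6% of all genes were called. The scalings shift all genes by nearly the same amount, and the floor and the narrower sets leave out members; for the single lanes the cause was not tested. No paired analysis was possible because each group has 1 library. Within a library 98.4% of 8877 genes at 10 RPKM or more differed by less than 2-fold between the differentiated lanes, and 98.5% of 7875 genes between the undifferentiated lanes.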
